A study of Mus musculus with 22 samples.

Results

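The genes described here are 37 immediate early genes, a list of named activity-induced transcription factors and effectors found by Ensembl identifier among the 23119 gene rows of a striatal RNA-seq count table. All 37 had a row. By role they are 8 AP-1 and related leucine zipper factors, 7 zinc finger factors, 5 nuclear receptors and other transcription factors, 12 feedback and signalling genes and 5 synaptic or secreted effectors. The animals were adult male C57BL/6J mice. One group self-administered oxycodone, an opioid receptor agonist, at 0.25 mg/kg per infusion for 4 hours a day over 14 days, and the other received saline infusions as yoked controls on the same schedule. Bulk libraries came from ventral striatum (6 oxycodone, 6 saline) and dorsal striatum (5 oxycodone, 5 saline). Drug exposure and control over the infusions differ together between the groups and cannot be told apart, and the time between the last session and tissue collection is not given in the sources used here.

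Immediate early genes are transcribed within minutes of synaptic activity from transcription factors already present in the cell, chiefly CREB, SRF with its ETS partners, and MEF2, without new protein synthesis. Their transcripts are short lived, so a bulk sample reports recent activity more than the history of a treatment. In striatum, dopamine acting through D1 receptors and glutamate acting through NMDA receptors raise cyclic AMP, calcium and ERK signalling in medium spiny neurons, the projection neurons that make up most of the tissue, and acute opioids and psychostimulants are known to induce Fos there. Fos and Jun family proteins pair to form AP-1. FosB has a stable splice form that accumulates under chronic drug exposure, and Homer1 has a short activity-induced form. Gene-level counts cannot separate these forms from the full-length transcripts, and the values below are sums over all forms.

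Library totals ran from 8408829 to 11000345 counts in ventral and from 11314079 to 21921963 counts in dorsal striatum, and levels are given in CPM, counts scaled to library size. Even numbers made up 47.8 to 48.8% of the nonzero counts in ventral and 54.2 to 57.5% in dorsal libraries. Its cause was not tested. How read pairs were counted is not given in the sources used here, so a count may not be the same unit in both regions. All 10 medium spiny neuron markers were detected in every group. The sixth library of each ventral group stood apart. In ventral saline library 6, the summed level of those 10 markers was 319 CPM, against 3196 to 4223 CPM in the other 5 saline libraries, and the summed level of 9 glutamatergic neuron markers was 1731 CPM, against 124 to 427 CPM. Ventral oxycodone library 6 held 1807 CPM of 8 choroid plexus markers, against 32.8 to 67.8 CPM in the other 5 libraries of its group, and 7654 CPM of medium spiny neuron markers, against 3400 to 4236 CPM. The values below use all libraries. Oxycodone estimates that turn in direction without both sixth libraries, and calls gained or lost without them, are also given. For the comparisons between regions, estimates that turn without a call are counted below for saline mice and the interaction but not listed by gene. Other ventral libraries differed from their group as well: saline library 1 held 697 CPM of 5 mural cell markers (group median without library 6, 122 CPM), and oxycodone library 1 had a chi-square per degree of freedom of 18.9 to 34.4 against the other libraries of its group, where libraries 2 to 5 were at 4.75 to 11.1 among themselves. In dorsal striatum the summed level of 6 blood markers was 411 to 631 CPM in saline and 596 to 1787 CPM in oxycodone libraries, and its part in the results was not tested. Another annotated gene overlaps 10 of the members, on the opposite strand for 9 of them (among them Jun, Junb, Jund, Dusp1, Bdnf and Csrnp1), and the strand setting of the counting is not given in the sources used here, so reads of such pairs may be mixed. A gene on the same strand, which a strand setting would not separate, overlaps 3 members: Dusp1, Homer1 and Csrnp1, the last by the microglial gene Cx3cr1. In bulk tissue, fewer cells of a type and less RNA per cell cannot be told apart. The sample labels do not say that libraries of a group are separate mice, so p-values measure only the spread between these samples.

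The promoters of 27 of the 37 genes were matched by symbol in RefSeq (GRCm38.p6), as 43 windows of 250 bases ending just before a transcription start. Genes without a window include Egr1 and Arc. The half-site of the cyclic AMP response element, TGACG on either strand, lay in a window of 19 of the 27 genes (70.4%), against 19.8% of all genes with a window. A gene with more windows has more places for a match, and all 27025 genes together had 32851 windows. Counted by window, TGACG was in 25 of 43, against 17.8% of all windows. The shares below are by gene. The full palindrome TGACGTCA, which contains that half-site on both strands, was in 3 of 27 (11.1%, against 1.77% of all genes): Btg2, Dusp1 and Maff. A CArG box, the site of SRF, was in 2 (7.41%, against 1.62%), Dusp5 and Egr2. The EGR site GCGGGGGCG was in 5 (18.5%, against 2.93%), and TATAAA was in 4 (14.8%, against 14.3%). Of these genes, 4 are printed because the results below turn on them: Fos as the reference gene of the set, Nr4a1 as a member that differed between regions, and Npas4 and Junb, which differed between dorsal libraries by a letter in their titles. They are read 5′ to 3′ on the strand of the gene, with capitals marking TGACG or its reverse complement CGTCA, the EGR site and TATAAA. Fos lies on the plus strand at chr12:85473640-85473889, Nr4a1 on the plus strand at chr15:101266596-101266845, Npas4 on the minus strand at chr19:4989972-4990221 and Junb on the minus strand at chr8:84978749-84978998.
Fos: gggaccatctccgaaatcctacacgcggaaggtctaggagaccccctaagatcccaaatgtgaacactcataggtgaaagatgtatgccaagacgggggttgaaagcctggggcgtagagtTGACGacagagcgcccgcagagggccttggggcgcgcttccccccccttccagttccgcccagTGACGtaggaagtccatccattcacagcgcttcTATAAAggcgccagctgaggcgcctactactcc
Nr4a1: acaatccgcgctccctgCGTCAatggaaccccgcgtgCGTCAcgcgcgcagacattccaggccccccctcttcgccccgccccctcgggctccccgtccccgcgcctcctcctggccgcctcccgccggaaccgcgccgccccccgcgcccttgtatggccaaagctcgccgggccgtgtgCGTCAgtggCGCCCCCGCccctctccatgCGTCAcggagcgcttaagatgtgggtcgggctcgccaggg
Npas4: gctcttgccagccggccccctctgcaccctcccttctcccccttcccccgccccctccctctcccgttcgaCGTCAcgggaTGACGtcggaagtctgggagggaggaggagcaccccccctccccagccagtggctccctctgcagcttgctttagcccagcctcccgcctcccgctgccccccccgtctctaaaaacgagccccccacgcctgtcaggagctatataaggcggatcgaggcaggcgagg
Junb: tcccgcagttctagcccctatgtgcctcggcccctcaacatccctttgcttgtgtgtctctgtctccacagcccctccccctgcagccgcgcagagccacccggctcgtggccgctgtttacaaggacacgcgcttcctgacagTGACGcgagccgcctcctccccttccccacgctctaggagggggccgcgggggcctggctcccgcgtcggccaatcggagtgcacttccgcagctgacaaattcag
Counting back from the start, Fos holds half-sites at -129 and -66 and TATAAA at -33. In Nr4a1 there are 4 half-sites, at -233, -213, -69 and -40, with an EGR site at -60. Npas4 has 2, at -179 and -169, and Junb has 1, at -106. A match is a run of letters and was not tested for binding.

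The members differed widely in level per kilobase of exon, which is the scale on which genes can be compared. In ventral saline the highest were Vgf, a secreted neuropeptide precursor, at 32.5 ± 8.19 CPM per kb (SD, n = 6), Egr1 at 20.6 ± 4.92 and Junb at 18.2 ± 3.45, and the lowest was Maff at 0.122 ± 0.0481. In dorsal saline the order began with Vgf at 37.5 ± 5.49 (SD, n = 5), Arc at 26.7 ± 8.08, Homer1 at 23.5 ± 1.61 and Junb at 21.2 ± 4.51, while Egr1 was at 7.43 ± 1.85. Egr1 and Junb, neighbours in ventral saline, differed by less than either SD, while Arc and Homer1, neighbours in dorsal saline, differed by less than the SD of Arc but more than that of Homer1. Vgf and Egr1 in ventral saline differed by more than either SD. Fos itself was a middle-ranking member, at 6.57 ± 1.53 in ventral saline and 3.35 ± 1.84 in dorsal saline. The coefficient of variation between libraries of a group had a median over the 37 members of 35.3% in ventral saline, 24.7% in ventral oxycodone, 29.9% in dorsal saline and 26.4% in dorsal oxycodone. Its extremes were Homer1 in dorsal saline at 6.85% and Bdnf in ventral saline at 132%. Atf3 was at 0 counts in 2 dorsal saline libraries, where 3 counts would amount to 0.137 to 0.265 CPM over the dorsal libraries.

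**Figure D1:**
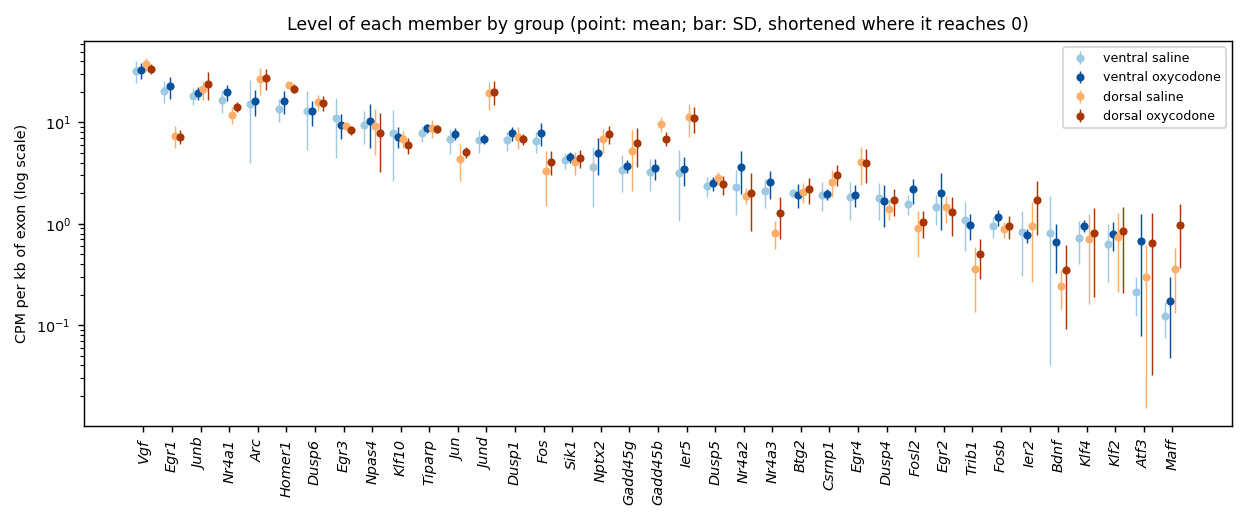
Mean level of each of the 37 members in CPM per kilobase of exon, on a log axis, with 1 point per group and SD bars, ordered by ventral saline. Vgf leads in all 4 groups, while Egr1 is at 20.6 in ventral and 7.43 in dorsal saline and Jund at 6.70 and 19.3.

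No member changed past the threshold after oxycodone in either region. In dorsal striatum, edgeR's quasi-likelihood test with Benjamini-Hochberg adjustment over all genes called 0 of 37 members, against 0.206% of all genes tested. DESeq2 and limma-voom also called 0, against 0.582% and 0.103% of genes. At an unadjusted p under 0.05, edgeR had 2 members (Maff higher, Gadd45b lower), which is 5.41% of the members against 5.64% of all genes, DESeq2 had 2 (against 6.39%) and limma-voom had 5 (13.5%, against 6.14%). In ventral striatum, 35 members passed the filter on low counts (Maff and Atf3 did not), and 0 were called, against 0% of all genes by edgeR, 0.269% by DESeq2 and 0.432% by limma-voom, each with 0 members. There, 1 member had an unadjusted p under 0.05 by edgeR (Fosl2, higher), 1 by DESeq2 and 8 by limma-voom, or 2.86%, 2.86% and 22.9% of the members against 9.13%, 9.46% and 16.4% of all genes. The estimates leaned upward without passing: 23 of 37 members were higher on average in dorsal oxycodone libraries (median log2 change 0.12, against -0.0083 over all genes) and 27 of 35 in ventral (median 0.13, against -0.0033). These medians rested partly on single libraries: the dorsal one was 0.031 without oxycodone library 2 and 0.039 without saline library 3, and in ventral striatum 20 of 35 members were positive (median 0.040) without saline library 1 and 18 of 35 in lane 2 alone. The lowest adjusted p over the members was 0.76 in dorsal and 0.514 in ventral striatum. A p above the threshold does not show that levels were equal, and the standard errors below give the size of change that these libraries could miss.

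**Figure D2:**
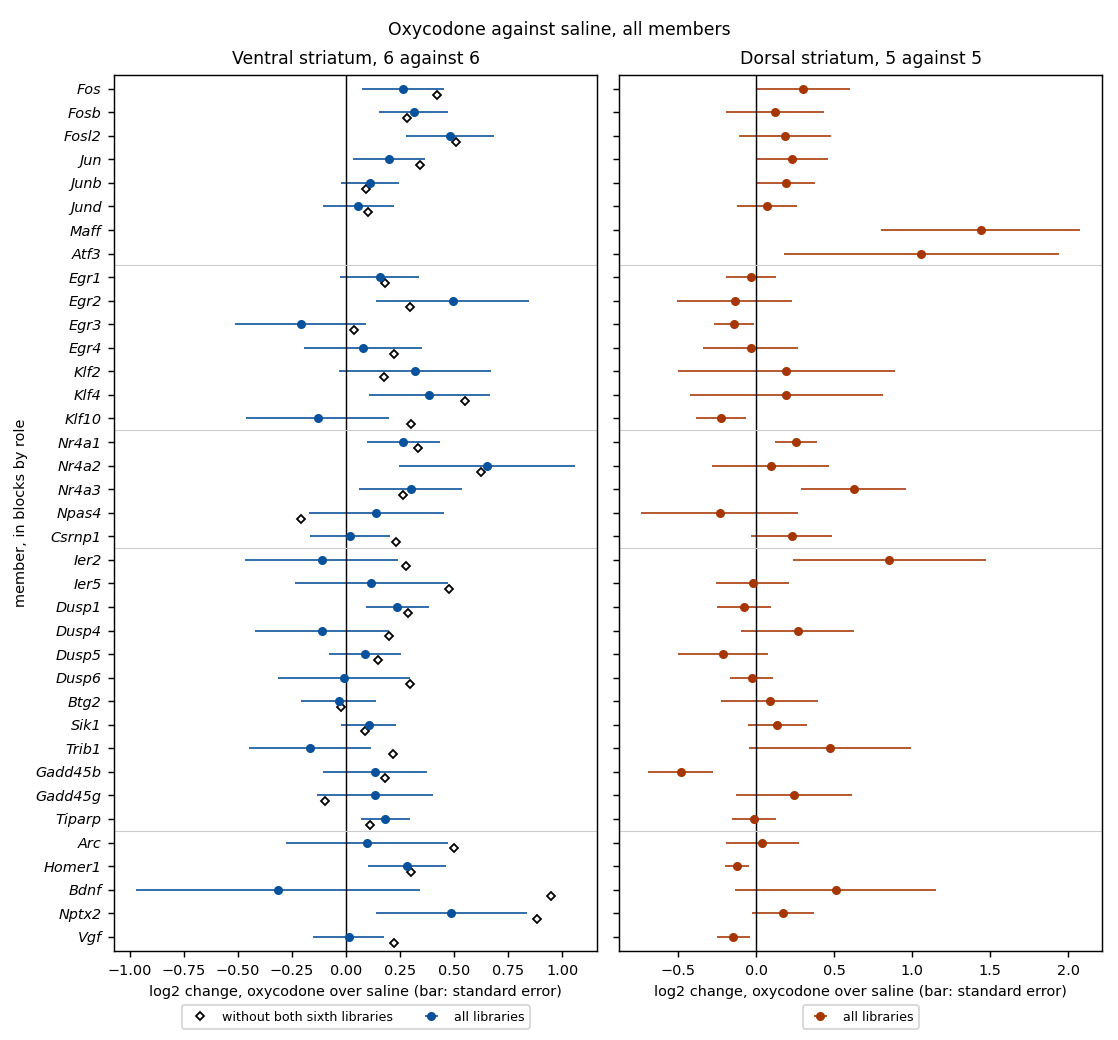
Log2 change of each member, oxycodone over saline, with standard errors, in ventral (left, blue) and dorsal (right, brown) striatum. Filled points use all libraries and open diamonds, without error bars, leave out both sixth ventral libraries, which moves Bdnf from -0.31 to 0.95 and gives 32 of 35 members a positive estimate.

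Among the AP-1 factors, Fos, the most used marker of recent neuronal activity (chr12:85473890-85477273, plus strand), was higher on average after oxycodone in both regions, with wide overlap. In ventral saline it ran from 9.02 through a median of 16.7 to 19.0 CPM, and in ventral oxycodone from 12.2 through 18.1 to 26.1. In dorsal saline libraries 1 to 5 it was 7.55, 15.4, 5.54, 4.83 and 6.08 CPM, and in dorsal oxycodone libraries 10.2, 13.4, 8.19, 6.6 and 9.76. Saline library 2 was the highest of the 10 dorsal libraries, so the groups overlapped. The log2 change was 0.27 ± 0.19 (SE, adjusted p = 0.68) in ventral and 0.30 ± 0.299 (adjusted p = 0.998) in dorsal striatum. Fosb, whose stable splice form is the best known chronic drug marker of this tissue, ran from 4.62 through 5.30 to 8.09 CPM in ventral saline and from 6.35 through 6.98 to 9.73 in ventral oxycodone. Its dorsal values were 5.24, 6.42, 6.62, 4.24 and 4.96 CPM in saline and 3.56, 7.53, 6.61, 6.46 and 5.67 in oxycodone libraries. The groups overlapped in both regions, with log2 changes of 0.31 ± 0.16 (adjusted p = 0.574) and 0.12 ± 0.313 (adjusted p = 0.998).

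Fosl2, which encodes the Fos relative FRA2, had the lowest p of any member in ventral striatum. It ran from 10.4 through 15.1 to 19.9 CPM in saline and from 11.5 through 22.2 to 28.3 in oxycodone libraries, 4 of the 6 oxycodone libraries lying above every saline library. The log2 change was 0.48 ± 0.203 (adjusted p = 0.514). In dorsal striatum Fosl2 was at 4.62, 13.5, 5.97, 13.2 and 6.59 CPM in saline and 9.73, 9.08, 8.26, 7.75 and 15.2 in oxycodone libraries (log2 change 0.18 ± 0.293, adjusted p = 0.998). Junb, which restrains AP-1 when it replaces Jun, ran from 32.0 through 44.6 to 49.5 CPM in ventral saline and from 37.4 through 45.3 to 54.8 in ventral oxycodone. Dorsal saline libraries held 56.6, 59.1, 40.6, 35.1 and 51.9 CPM and dorsal oxycodone libraries 66.8, 78.1, 47.6, 37.4 and 46.4. Its log2 changes were 0.11 ± 0.134 and 0.19 ± 0.186 (adjusted p = 0.813 and 0.998). Maff, a small Maf protein without an activation domain, was scarce, with 1 to 8 counts in each ventral library. In dorsal saline it was at 0.355, 1.76, 1.01, 1.14 and 0.374 CPM and in dorsal oxycodone at 0.889, 5.12, 2.16, 2.01 and 2.37. All but the first oxycodone library exceeded every saline library (log2 change 1.44 ± 0.638, adjusted p = 0.792). The remaining 3 also had positive estimates where tested: Jun at 0.20 ± 0.166 in ventral and 0.23 ± 0.228 in dorsal striatum, Jund at 0.06 ± 0.163 and 0.07 ± 0.193, and Atf3, a stress-induced factor, at 1.06 ± 0.882 in dorsal striatum.

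**Figure D3:**
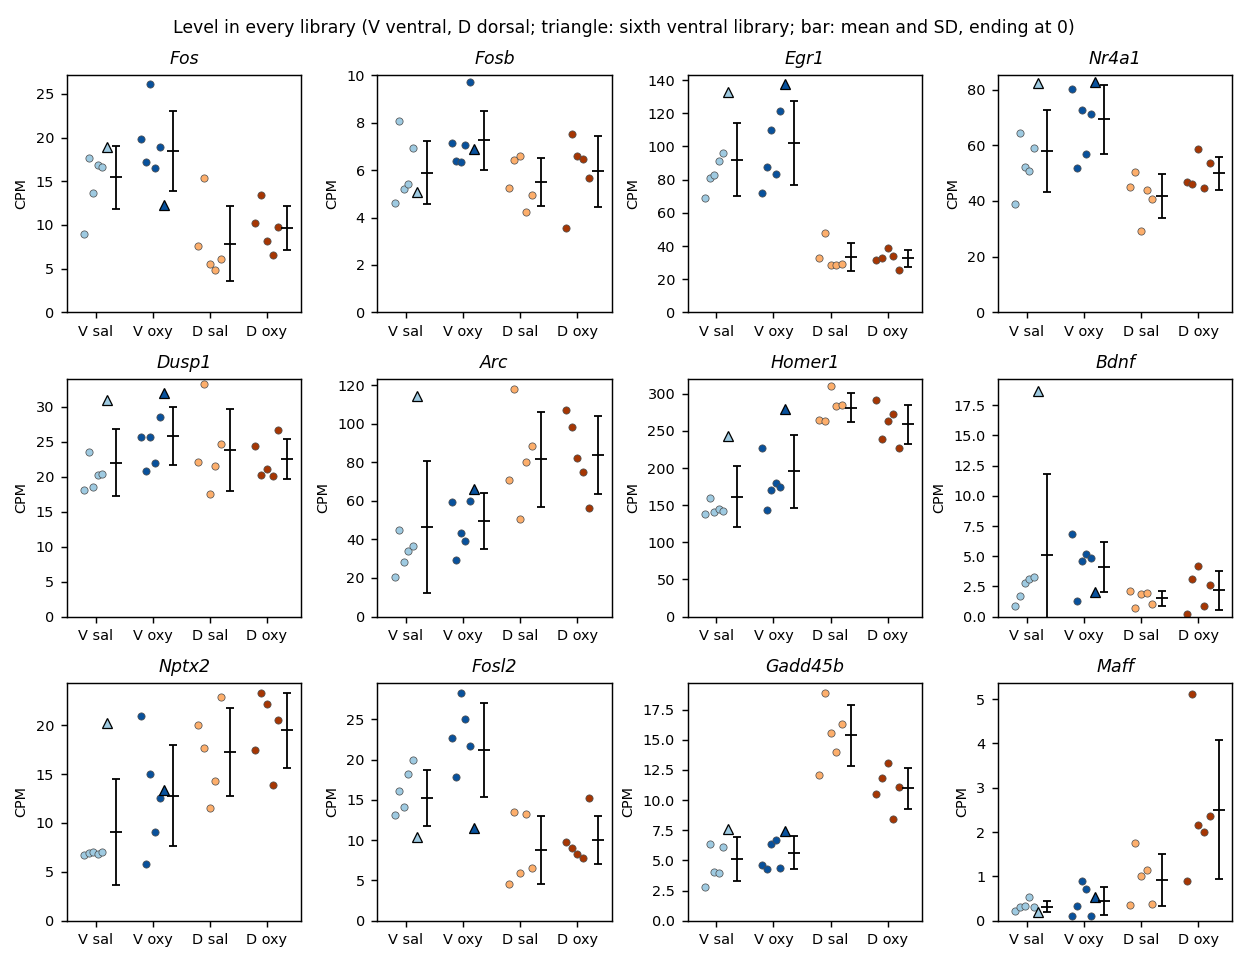
CPM of 12 members in each of the 22 libraries, by group, with the mean and SD beside the points and triangles for the sixth ventral libraries. In ventral saline the triangle is the highest point for Arc (114), Bdnf (18.7) and Nptx2 (20.2), and for Fos, Fosl2 and Maff the oxycodone points overlap those of saline.

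The zinc finger factors included the EGR family, which acts downstream of ERK and SRF. Egr1, a regulator of synaptic plasticity genes, ran from 68.7 through 87.1 to 133 CPM in ventral saline and from 72.2 through 98.9 to 138 in ventral oxycodone. Its dorsal values were 32.9, 47.8, 28.6, 28.4 and 29.1 CPM in saline and 31.3, 32.9, 39.1, 33.9 and 25.3 in oxycodone libraries. Neither region separated the treatments (log2 change 0.16 ± 0.184 in ventral and -0.03 ± 0.157 in dorsal, adjusted p = 0.809 and 0.998). Egr2, best known for myelination and hindbrain patterning, ran from 2.82 through 4.92 to 7.77 CPM in ventral saline and from 2.95 through 5.48 to 11.7 in ventral oxycodone. In dorsal libraries it was at 6.39, 5.80, 2.66, 4.24 and 5.52 CPM with saline and 5.22, 7.30, 3.38, 2.58 and 3.80 with oxycodone. Its estimates, 0.49 ± 0.353 in ventral and -0.14 ± 0.367 in dorsal, had opposite signs and adjusted p = 0.68 and 0.998. Klf4, a pluripotency factor also found in endothelium, ran from 0.864 through 2.29 to 3.59 CPM in ventral saline and from 2.24 through 2.93 to 3.47 in ventral oxycodone. Dorsal saline libraries held 0.533, 4.05, 0.791, 3.78 and 1.59 CPM of it and dorsal oxycodone libraries 1.45, 1.03, 1.01, 5.24 and 3.66. The log2 changes were 0.39 ± 0.279 and 0.19 ± 0.618, neither called. Among the others, Egr3 and Klf10 had negative estimates in both regions (Egr3 -0.21 ± 0.302 and -0.14 ± 0.128, Klf10 -0.13 ± 0.331 and -0.23 ± 0.161), the ventral ones turning to 0.04 ± 0.106 and 0.30 ± 0.203 without both sixth libraries. Klf2 had positive estimates (0.32 ± 0.351 and 0.19 ± 0.693), and Egr4 was at 0.08 ± 0.272 and -0.03 ± 0.304. Of the 7 zinc finger factors, 5 in ventral (7 without both sixth libraries) and 2 in dorsal striatum had positive estimates.

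Among the orphan nuclear receptors, Nr4a1 (Nur77), which dopamine and its antagonists are known to regulate in striatum, ran from 38.9 through 55.6 to 82.4 CPM in ventral saline and from 52.0 through 72.0 to 82.7 in ventral oxycodone. In dorsal saline it was at 45.2, 50.3, 29.2, 44.1 and 40.6 CPM and in dorsal oxycodone at 46.9, 46.1, 58.6, 44.8 and 53.5. Its estimates were nearly the same in both regions, 0.27 ± 0.169 in ventral and 0.26 ± 0.135 in dorsal striatum (adjusted p = 0.645 and 0.913). Nr4a2 (Nurr1), a dopamine neuron factor that is also activity induced, ran from 4.20 through 10.4 to 14.9 CPM in ventral saline and from 3.42 through 15.1 to 24.2 in ventral oxycodone. Dorsal libraries held 9.06, 7.56, 7.77, 8.61 and 5.56 CPM with saline and 1.501, 12.7, 11.2, 4.95 and 10.8 with oxycodone. Dorsal oxycodone libraries were the more scattered, with a coefficient of variation of 58.1% against 17.5% in saline, and the ventral values were 45.8% and 47.1% (log2 changes 0.65 ± 0.407 in ventral and 0.09 ± 0.373 in dorsal striatum, adjusted p = 0.636 and 0.998). Nr4a3 (NOR-1) ran from 7.17 through 12.9 to 18.7 CPM in ventral saline and from 10.2 through 14.7 to 22.3 in ventral oxycodone. Its dorsal values were 5.15, 5.80, 2.88, 6.79 and 3.88 CPM in saline and 3.502, 8.05, 12.6, 7.53 and 6.24 in oxycodone libraries. In dorsal striatum 3 of 5 oxycodone libraries exceeded every saline library (log2 change 0.63 ± 0.337, adjusted p = 0.917), and the ventral change was 0.30 ± 0.239 (adjusted p = 0.712).

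Npas4, a neuron-specific factor induced by calcium entry (chr19:4984355-4990316, minus strand), showed a split within groups rather than between treatments. In dorsal saline it was at 49.8, 61.1, 19.6, 20.1 and 40.3 CPM and in dorsal oxycodone at 54.0, 50.6, 24.1, 18.5 and 13.6. Each dorsal group held both high and low libraries, with a gap between them. Ventral saline ran from 18.9 through 38.8 to 59.4 CPM and ventral oxycodone from 23.3 through 34.8 to 70.4. The log2 changes were 0.14 ± 0.312 in ventral and -0.23 ± 0.501 in dorsal striatum (adjusted p = 0.907 and 0.998), and the ventral one turned to -0.21 ± 0.279 without both sixth libraries (adjusted p = 0.861).

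The feedback and signalling genes include some that shut down the signals that induce the set. Dusp1, a nuclear phosphatase of the MAP kinases, ran from 18.1 through 20.4 to 30.9 CPM in ventral saline and from 20.9 through 25.7 to 32.0 in ventral oxycodone. In dorsal libraries it was at 22.1, 33.2, 17.6, 21.5 and 24.7 CPM with saline and 24.3, 20.3, 21.2, 20.1 and 26.8 with oxycodone. The estimates were 0.24 ± 0.146 and -0.08 ± 0.172 (adjusted p = 0.634 and 0.998). Gadd45b, which takes part in activity-dependent DNA demethylation, had the lowest p of any member in dorsal striatum and was lower there. It was at 12.1, 18.9, 15.5, 13.9 and 16.3 CPM in dorsal saline and 10.5, 11.8, 13.1, 8.47 and 11.0 in dorsal oxycodone, so 4 of 5 oxycodone libraries lay below every saline library (log2 change -0.48 ± 0.208, adjusted p = 0.76). Ventral saline ran from 2.83 through 5.05 to 7.64 CPM of Gadd45b and ventral oxycodone from 4.33 through 5.51 to 7.41 (log2 change 0.14 ± 0.241, adjusted p = 0.88). Tiparp, a mono-ADP-ribosyltransferase of the aryl hydrocarbon receptor pathway, ran from 23.8 through 34.0 to 40.0 CPM in ventral saline and from 33.6 through 37.8 to 44.6 in ventral oxycodone. Dorsal values were 30.7, 50.4, 36.8, 38.3 and 34.0 CPM in saline and 43.0, 33.8, 35.1, 40.0 and 36.6 in oxycodone libraries. Its log2 changes were 0.18 ± 0.114 and -0.01 ± 0.14. Ier5, a regulator of heat shock factor activity, ran from 4.93 through 8.10 to 24.2 CPM in ventral saline and from 6.61 through 11.0 to 15.9 in ventral oxycodone, and in dorsal libraries was at 50.3, 27.3, 27.4, 27.0 and 52.2 CPM with saline and 50.0, 35.2, 41.7, 23.2 and 31.1 with oxycodone. Treatment did not separate it in either region (0.12 ± 0.354 and -0.02 ± 0.236). The remaining 8 genes of this role (Ier2, Dusp4, Dusp5, Dusp6, Btg2, Sik1, Trib1 and Gadd45g) had estimates from -0.17 (Trib1) to 0.13 (Gadd45g) in ventral and from -0.21 (Dusp5) to 0.85 (Ier2) in dorsal striatum. Csrnp1, counted with the nuclear receptors and other factors, was at 0.02 ± 0.184 and 0.23 ± 0.257. Over all 12 feedback and signalling genes, 7 had positive estimates in ventral and 6 in dorsal striatum.

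The effectors carry the response to the synapse. Arc, which drives AMPA receptor endocytosis (chr15:74669083-74672570, minus strand), ran from 20.4 through 35.3 to 114 CPM in ventral saline and from 29.2 through 51.5 to 66.3 in ventral oxycodone. The 114 CPM came from saline library 6. In dorsal saline Arc was at 70.8, 118, 50.8, 80.2 and 88.3 CPM and in dorsal oxycodone at 107, 98.5, 82.0, 74.8 and 56.2. Its log2 changes were 0.10 ± 0.374 and 0.04 ± 0.235 (adjusted p = 0.948 and 0.998). Homer1, a postsynaptic scaffold of group I metabotropic glutamate receptors, ran from 138 through 144 to 244 CPM in ventral saline and from 143 through 177 to 279.5 in ventral oxycodone. Dorsal libraries were more even, at 265, 263, 311, 283 and 285 CPM with saline and 292, 239.7, 264, 273 and 226 with oxycodone. The estimates were 0.28 ± 0.182 in ventral and -0.12 ± 0.078 in dorsal striatum (adjusted p = 0.649 and 0.983).

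Bdnf, the neurotrophin that striatum receives mostly as protein from cortical axons, ran from 0.839 through 2.97 to 18.7 CPM in ventral saline and from 1.25 through 4.69 to 6.84 in ventral oxycodone. The 18.7 CPM was again saline library 6, and the next library of its group was at 3.31. Dorsal values were 2.13, 0.704, 1.87, 1.91 and 1.03 CPM in saline and 0.222, 3.10, 4.17, 0.861 and 2.58 in oxycodone libraries. The log2 changes were -0.31 ± 0.656 and 0.51 ± 0.644 (adjusted p = 0.901 and 0.998). Nptx2, a secreted pentraxin that clusters AMPA receptors, ran from 6.71 through 6.98 to 20.2 CPM in ventral saline and from 5.81 through 12.9 to 20.9 in ventral oxycodone. The 5 saline libraries other than library 6 lay between 6.71 and 7.06 CPM, a far narrower span than that of the oxycodone libraries. In dorsal libraries Nptx2 was at 19.98, 17.7, 11.5, 14.3 and 22.9 CPM with saline and 17.5, 23.3, 22.2, 13.8 and 20.5 with oxycodone. Its log2 changes were 0.49 ± 0.348 and 0.17 ± 0.198 (adjusted p = 0.679 and 0.998). Vgf ran from 74.8 through 94.0 to 140.0 CPM in ventral saline and from 70.7 through 96.9 to 125 in ventral oxycodone, and in dorsal libraries was at 109, 129, 85.4, 115 and 119 CPM with saline and 109, 87.4, 113, 107 and 87.8 with oxycodone. Its estimates were 0.01 ± 0.165 and -0.15 ± 0.105.

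Leaving out both sixth ventral libraries raised the estimates without producing a call. With 5 libraries a group, 32 of 35 members were higher on average after oxycodone (median log2 change 0.26, against -0.0049 over all genes), where 27 had been before. At an unadjusted p under 0.05 there were 8 members, all higher, or 22.9% of the members against 10.4% of all genes. They were Fosl2 at 0.51 ± 0.137, Nptx2 at 0.88 ± 0.272, Homer1 at 0.30 ± 0.098, Dusp1 at 0.29 ± 0.103, Jun at 0.34 ± 0.133, Fos at 0.42 ± 0.173, Nr4a1 at 0.33 ± 0.142 and Bdnf at 0.95 ± 0.408. The lowest adjusted p, for Fosl2, was 0.245. Estimates turned from negative to positive for Egr3, Klf10, Ier2 (-0.11 to 0.28), Dusp4 (-0.11 to 0.20), Dusp6 (-0.0081 to 0.30), Trib1 (-0.17 to 0.22) and Bdnf, and from positive to negative for Npas4 and Gadd45g (0.13 to -0.095). By role, 6 of 6 AP-1 factors, 7 of 7 zinc finger factors, 4 of 5 nuclear receptors and other factors, 10 of 12 feedback genes and 5 of 5 effectors were positive. No member was called by edgeR, DESeq2 or limma-voom in that set, with 8, 10 and 8 members at an unadjusted p under 0.05. These are 22.9%, 28.6% and 22.9% of the members, against 10.4%, 9.81% and 16.3% of all genes. The excess by edgeR rested partly on oxycodone library 1, which stood apart from its group. With that library left out as well, a set chosen after seeing the data, 6 of 35 members were at an unadjusted p under 0.05. That is 17.1%, against 15.6% of all genes. Nptx2 exceeded every remaining saline library in 4 of 5 oxycodone libraries and lay below them all in the other. Without saline library 6 alone, 9 of 35 members and 1880 of 14192 genes had an unadjusted p under 0.05, and 0 members were called. The glutamatergic and medium spiny neuron markers given above moved with saline library 6, and their part in the lower estimates with that library was not tested.

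The oxycodone effect itself was compared between regions by an interaction term. It called 0 of 37 members, against 0% of all genes, with edgeR, DESeq2 and limma-voom alike. At an unadjusted p under 0.05 there were 0, 1 and 2 members (0%, 2.7% and 5.41%, against 4.51%, 4.82% and 4.32% of all genes). Gadd45b had the lowest p, at -0.61 ± 0.305 (dorsal minus ventral log2 change, adjusted p = 0.981), followed by Homer1 at -0.40 ± 0.209. Without both sixth ventral libraries, 5 members had an unadjusted p under 0.05 (Homer1, Vgf, Gadd45b, Nptx2 and Klf10), each with the lower log2 change in dorsal striatum (13.5%, against 4.1% of all genes), and 0 were called. Positive interaction estimates numbered 15 of 37 with all libraries and 9 of 37 without both sixth libraries.

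Upstream regulators and other activity-induced genes gave no call either. Of 35 upstream regulators (CREB family and coactivators, SRF, MEF2, kinases and phosphatases of the cyclic AMP, calcium and ERK pathways), 0 were called in either region, and of 25 other activity-induced genes, 0. At an unadjusted p under 0.05, dorsal striatum had 1 upstream regulator (lower) and 3 other activity-induced genes (higher), and ventral striatum had 4 (3 higher) and 4 (all higher), where 5.64% and 9.13% of all genes did. The lowest p in dorsal striatum belonged to Pim1, a survival kinase, at 1.26 ± 0.465 (adjusted p = 0.572), where all 5 oxycodone libraries exceeded all 5 saline libraries, and to Ccn1, a matricellular protein, at 0.90 ± 0.336. In ventral striatum they were Inhba, the activin subunit, at 0.53 ± 0.139, and Prkaca, the catalytic subunit of protein kinase A, at -0.26 ± 0.0736 (both adjusted p = 0.393). Without both sixth libraries the first were Ier3 at 0.70 ± 0.164 (adjusted p = 0.189) and Ptgs2, the inducible cyclooxygenase, at 0.98 ± 0.227 (adjusted p = 0.207), with all 5 oxycodone libraries above all 5 saline libraries for Ptgs2.

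Dorsal and ventral striatum differed in which members they held at high level, within each treatment. In saline mice 6 of 35 members were higher in dorsal striatum, against 23.6% of all genes, and 7 were lower, against 22.3%. In oxycodone mice 9 of 35 were higher (23.5% of all genes) and 7 lower (23.7%). These shares lie near the background, and the median log2 difference was 0.043 in saline and -0.046 in oxycodone mice. Ventral and dorsal libraries are labelled by separate numbering, with lanes given for ventral libraries, and region and sequencing run cannot be told apart. Of the 13 members called in saline and the 16 in oxycodone mice, 12 were called in both (92.3% and 75.0%), all in the same direction. The comparisons share no libraries, but in both of them region and sequencing run differ together. The share of all genes called in both was not computed, so the overlap does not set the members apart from other genes.

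Lower in dorsal striatum in both treatments were Fos, Fosl2, Jun, Egr1, Nr4a1, Nr4a3 and Trib1. Egr1 had the lowest p of these 7 in both treatments, with a log2 difference of -1.48 ± 0.18 in saline (adjusted p = 1.68e-05) and -1.68 ± 0.165 in oxycodone mice (adjusted p = 1.76e-06), or 2.79-fold and 3.2-fold lower, with all 5 dorsal libraries below all 6 ventral libraries each time. Fos was 1.99-fold and 1.95-fold lower (-0.99 ± 0.292 and -0.96 ± 0.199, adjusted p = 0.0124 and 0.000851), with 4 of 5 dorsal libraries below every ventral library in each treatment. Nr4a3 was lower by -1.36 ± 0.271 and -1.05 ± 0.283, and Trib1, a pseudokinase that turns over C/EBP factors, by -1.60 ± 0.415 and -0.97 ± 0.304. The smaller differences were those of Fosl2 (-0.80 ± 0.282 and -1.11 ± 0.22), Jun (-0.66 ± 0.253 and -0.64 ± 0.125) and Nr4a1 (-0.48 ± 0.176 and -0.50 ± 0.123). In saline mice, those 3 lost the call when single libraries were left out. Fosl2 lost it without ventral saline library 2, 4 or 5 or dorsal saline library 1, 3 or 5 (adjusted p from 0.0518 to 0.0804), Jun without ventral saline library 3, 4, 5 or 6 or dorsal saline library 2, 3 or 5 (from 0.052 to 0.111), and Nr4a1 without ventral saline library 2, 5 or 6 or dorsal saline library 1, 3, 4 or 5 (from 0.0548 to 0.0946).

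Higher in dorsal striatum in both treatments were Jund, Ier5, Gadd45b, Egr4 and Homer1. Jund, an AP-1 subunit that is expressed without stimulation (chr8:70698949-70700616, plus strand), was at 37.8, 45.03, 21.7, 22.7 and 33.7 CPM in dorsal saline and 38.1, 46.9, 25.7, 29.2 and 28.4 in dorsal oxycodone libraries. It ran from 7.24 through 11.5 to 14.9 CPM in ventral saline and from 9.69 through 11.8 to 13.5 in ventral oxycodone. The regions did not overlap in either treatment, with a log2 difference of 1.51 ± 0.223 in saline (2.86-fold, adjusted p = 7.56e-05) and 1.52 ± 0.157 in oxycodone mice. Jund is among the genes with an overlapping antisense gene. Ier5 had the largest difference of the shared 12 in saline mice, 1.81 ± 0.376 (3.49-fold), and 1.66 ± 0.229 in oxycodone mice. Gadd45b differed by 1.56 ± 0.237 and 0.93 ± 0.191, and for Jund, Ier5 and Gadd45b every dorsal library exceeded every ventral library in both treatments. Egr4 differed by 1.14 ± 0.335 and 1.02 ± 0.26. Homer1 differed by 0.79 ± 0.134 in saline mice, every dorsal library again being above every ventral one, and by 0.38 ± 0.144 in oxycodone mice (adjusted p = 0.0434). In oxycodone mice that last call was lost without ventral oxycodone library 2, 3, 4 or 5 or dorsal oxycodone library 1, 3 or 4 (adjusted p from 0.0558 to 0.0899).

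**Figure D4:**
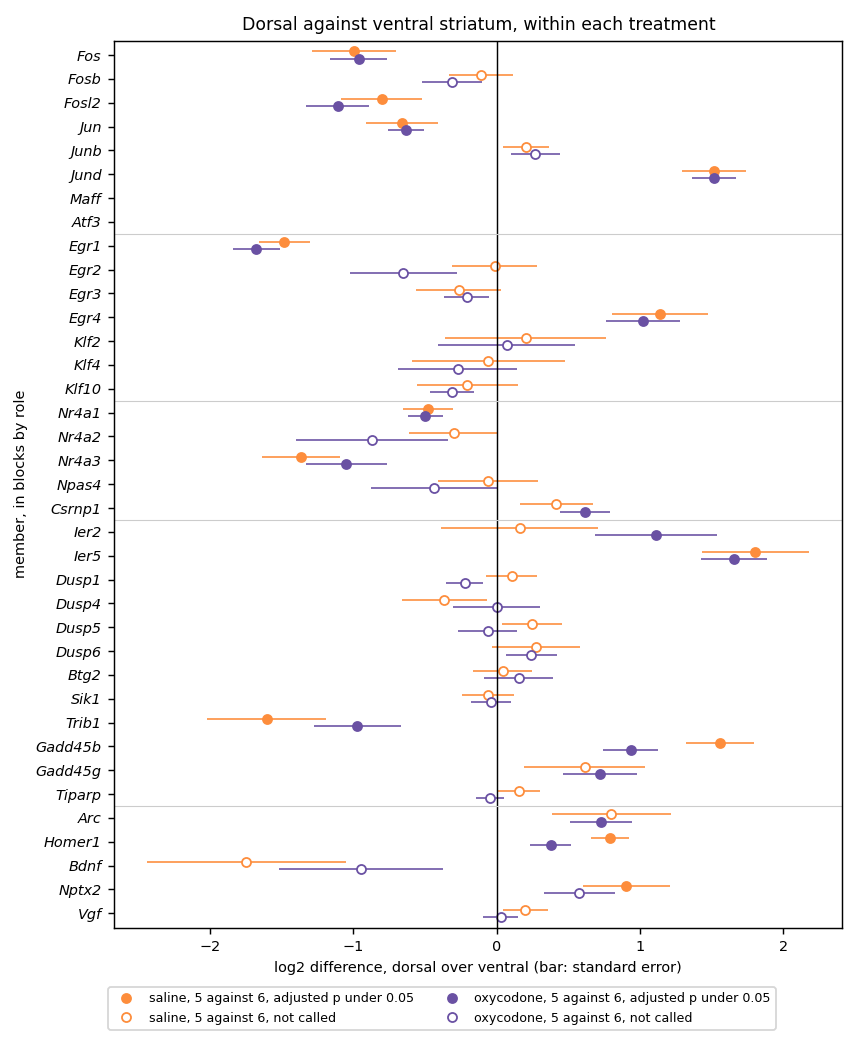
Log2 difference of each member, dorsal over ventral striatum, within saline (orange) and oxycodone (purple) mice, with standard errors and filled points for an adjusted p under 0.05. Egr1 lies at -1.48 and -1.68 and Jund at 1.51 and 1.52, while Maff and Atf3 have no point because they failed the filter on low counts.

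A further 5 members were called in a single treatment, which does not show that the treatments differ. Nptx2 was called in saline mice (0.91 ± 0.304, adjusted p = 0.025), a call lost without ventral saline library 2, 3, 4 or 5 or dorsal saline library 1 or 5 (adjusted p from 0.0512 to 0.0702). In oxycodone mice Csrnp1 (0.62 ± 0.177; overlapped by Cx3cr1), Arc (0.73 ± 0.215), Gadd45g (0.72 ± 0.257) and Ier2 (1.11 ± 0.428) were called. Gadd45g lost the call without ventral oxycodone library 1, 3 or 4 or dorsal oxycodone library 1 or 5 (adjusted p from 0.0511 to 0.0894), and Ier2 without any 1 of the 6 ventral oxycodone libraries or without dorsal oxycodone library 1, 4 or 5 (from 0.0553 to 0.0984). With all 22 libraries in 1 fit, Arc, Gadd45g and Ier2 lost the call (adjusted p = 0.0866, 0.096 and 0.0678), and with limma-voom Gadd45g and Ier2 did (0.0514 and 0.156). Without both sixth libraries 9 of 37 members were higher in dorsal oxycodone libraries (24.9% of all genes) and 7 lower (22.6%), with Ier2 lost (adjusted p = 0.0561) and Maff, which then passed the filter, called at 2.55 ± 0.61 (adjusted p = 0.0023). Saline library 6 of ventral striatum also bore on the saline comparison. Without it 10 of 35 members were higher in dorsal striatum (27.3% of all genes) and 5 lower (23.4%), with Arc at 1.33 ± 0.213, Nptx2 at 1.33 ± 0.191, Dusp6 at 0.69 ± 0.138, Vgf at 0.36 ± 0.113 and Csrnp1 at 0.62 ± 0.237 among those higher. Called or not, 18 of 35 members had positive estimates in saline mice with that library and 22 without it. Among the 7 zinc finger factors these counts were 2 and 6. No call was made in either treatment for Fosb, Junb, Egr2, Egr3, Klf2, Klf4, Klf10, Nr4a2, Npas4, Dusp1, Dusp4, Dusp5, Dusp6, Btg2, Sik1, Tiparp, Vgf and Bdnf, of which Bdnf had the largest estimate (-1.75 ± 0.691 in saline mice, adjusted p = 0.0537), which was -0.61 ± 0.454 without ventral saline library 6 (adjusted p = 0.279). Medium spiny neuron markers summed to 6287 to 7625 CPM in dorsal libraries and to 3196 to 4236 CPM in the ventral libraries other than the sixth, and oligodendrocyte markers to 2639 to 3973 and 1199 to 2448 CPM. Choroid plexus markers summed to 75.5 to 3603 and 32.8 to 67.8 CPM, and microglial markers to 511 to 743 and 323 to 484 CPM, and none of these ranges overlapped. Their part in the member differences was not tested.

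The upstream regulators also differed between regions. In saline mice 9 of 35 were higher and 16 lower in dorsal striatum, and in oxycodone mice 8 and 15, against the shares of all genes given above. The first 5 by p in saline mice were Mef2d at -1.15 ± 0.0956, Elk4 at -0.99 ± 0.103, Camk2b at 0.60 ± 0.0652, Ep300 at -0.86 ± 0.093 and Mrtfb at -0.78 ± 0.0849. Mef2d and Mrtfb are DNA-binding and coactivator partners of the calcium and actin branches of early gene induction, Elk4 is an ETS partner of SRF, Camk2b is a subunit of calcium/calmodulin kinase II and Ep300 is the acetyltransferase p300. In oxycodone mice they were Camkk1 at 1.38 ± 0.0831, Braf at -0.67 ± 0.0628, Crtc2, a CREB coactivator, at -1.41 ± 0.143, Mef2d at -1.23 ± 0.131 and Mrtfb at -0.85 ± 0.0972. Of the 25 other activity-induced genes, 7 were higher and 4 lower in saline mice, against 23.6% and 22.3% of all genes. In oxycodone mice 6 were higher and 5 lower, against 23.5% and 23.7%.

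Within dorsal striatum the lowest p of any member came not from treatment but from a suffix in the library titles. Dorsal oxycodone libraries 3, 4 and 5 and saline libraries 3 and 4 carry the letter P after their number, and the other 5 do not. What the letter means is not given in the sources used here. This contrast was added after the data were seen, with treatment kept in the model. Of the 37 members, 3 were lower in libraries with the suffix, against 0.315% of all genes, and 0 were higher, against 0.0891%. At an unadjusted p under 0.05 there were 8 lower and 1 higher (24.3%, against 9.91% of all genes). Npas4 was at 24.1, 18.5 and 13.6 CPM in the oxycodone and 19.6 and 20.1 in the saline libraries with the suffix. Without it, Npas4 was at 54.0 and 50.6 CPM in oxycodone and 49.8, 61.1 and 40.3 in saline libraries. The sets did not overlap, and the log2 difference was -1.41 ± 0.153 (2.66-fold lower, adjusted p = 2.48e-06), a call kept in each of 10 fits that left out 1 library. Junb was at 35.1 to 47.6 CPM with and 51.9 to 78.1 without the suffix (-0.64 ± 0.116, adjusted p = 0.00492), and Jund at 21.7 to 29.2 and 33.7 to 46.9 (-0.71 ± 0.14, adjusted p = 0.012). Junb lost the call without dorsal oxycodone library 2 (adjusted p = 0.0576) and Jund without dorsal oxycodone library 2 or dorsal saline library 3 or 4 (from 0.0541 to 0.107).

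**Figure D5:**
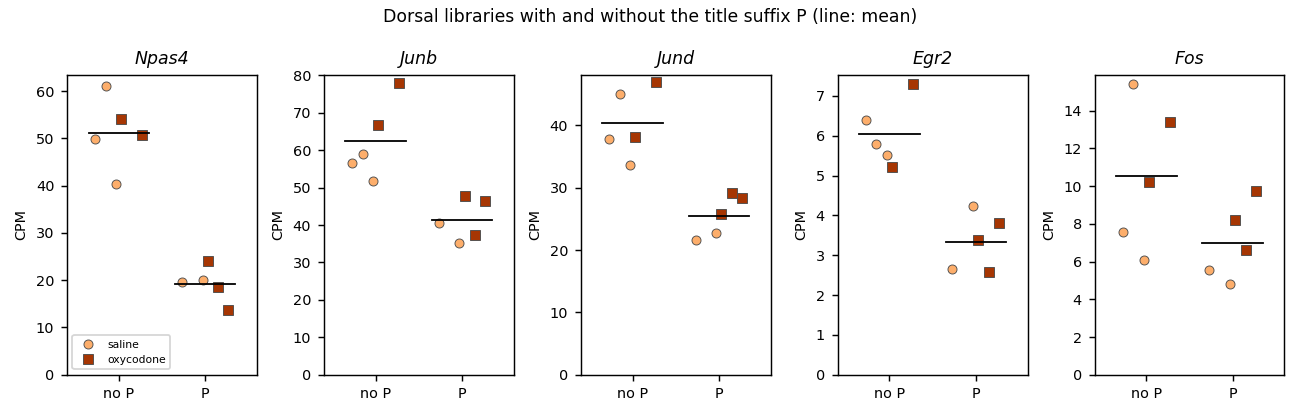
CPM of Npas4, Junb, Jund, Egr2 and Fos in the 10 dorsal libraries, split by the title suffix P, with circles for saline, squares for oxycodone and lines for the means. Npas4 lies at 40.3 to 61.1 without and 13.6 to 24.1 with the suffix, in both treatments, while the Fos points overlap.

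Of the 37 members, 24 had lower and 13 had higher estimates with the suffix. Atf3, not called, had the largest estimate of any member, 2.05 higher on the log2 scale. It was at 9 to 53 counts with and 0 to 16 counts without the suffix. Some other members leaned lower without passing. Egr2 was at 2.58 to 4.24 CPM with and 5.22 to 7.30 without the suffix, with no overlap (-0.85 ± 0.35, adjusted p = 0.386), and Arc (-0.51 ± 0.145), Ier5 (-0.54 ± 0.179) and Fos (-0.71 ± 0.285) had adjusted p = 0.154, 0.239 and 0.38. Libraries of each treatment exist whose titles share a number and differ only in the suffix. In the oxycodone pair Npas4 was 50.6 CPM without and 24.1 with the suffix, and in the saline pair 61.1 and 19.6. Whether such a pair comes from 1 mouse is not given in the sources used here, and the libraries were kept separate. With each pair summed, Jun in saline mice (adjusted p = 0.0825) and Homer1 in oxycodone mice (0.053) lost their region calls, and 0 members were called for oxycodone. Homer1 and Nr4a1 did not share the division, at 0.03 and -0.06 on the log2 scale. Of 35 upstream regulators 1 was called, Mrtfb, higher with the suffix by 0.32 ± 0.0675 (adjusted p = 0.0183), followed by Crebbp at 0.29 ± 0.0721 (adjusted p = 0.0724). Choroid plexus markers summed to 75.5 to 3177 CPM with and 1941 to 3603 CPM without the suffix, and endothelial markers to 459 to 695 and 437 to 482 CPM. Their part in the Npas4 difference was not tested. Totals overlapped, at 13797075 to 21921963 counts with and 11314079 to 21271576 without. With the suffix as a covariate, 0 members were called for oxycodone.

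Ventral titles carry no such suffix, but a sequencing lane is given for them, with 8 libraries in lane 1 and 4 in lane 2, balanced by treatment. Lane 2 against lane 1 called 0 of 35 members, against 0% of all genes. At an unadjusted p under 0.05 there were 10 members, all higher in lane 2 (28.6%, against 9.75% of all genes), and 1 (Egr1) once both sixth libraries, which are in lane 2, were left out (2.86%, against 5.13%). Within lane 1 alone (4 against 4 libraries) 0 members were called for oxycodone. There, 7 of 35 members had an unadjusted p under 0.05, against 6.16% of all genes.

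Most members had a positive correlation with Fos across libraries in both regions. The share over all genes was not computed, so the counts and medians below do not set the members apart from other genes. Over the 10 ventral libraries other than the sixth, 32 of 34 members correlated positively with Fos in log2 CPM (median Pearson r 0.58). After adjustment over the 34 relations, 2 passed by a permutation test with 100000 resamples, Fosl2 (r = 0.83, p = 0.00126, adjusted p = 0.0218) and Nr4a1 (r = 0.86, p = 0.00128, adjusted p = 0.0218). Spearman's rho was 0.62 for Fosl2 (permutation p = 0.0605, adjusted p = 0.343) and 0.81 for Nr4a1 (permutation p = 0.00683, adjusted p = 0.102). Without the 2 libraries farthest from the median of Fos, r was 0.62 and 0.77. On deviations from the treatment means neither passed (r = 0.72 and 0.80, permutation adjusted p = 0.141 and 0.104), and within lane 1 Nr4a1 had r = 0.87 and Fosl2 0.82 (permutation adjusted p = 0.0554 for both). In the 10 dorsal libraries 30 of 36 members correlated positively (median r 0.29) and 0 passed. There the closest to Fos were Jund (r = 0.80, rho = 0.78) and Junb (r = 0.79, rho = 0.79), each with permutation adjusted p = 0.14 for r, and r was 0.58 and 0.71 without the 2 farthest libraries. Both are members that differed by the title suffix. On deviations from the treatment means Junb had rho = 0.90 (permutation adjusted p = 0.0274) and r = 0.78 (adjusted p = 0.0968). On deviations from the mean of treatment and suffix together, Egr3 came first (r = 0.87, permutation adjusted p = 0.0151), and Jund and Junb were at r = 0.75 and 0.66. The permutations treated deviations as independent values, which they are not once group means are removed. The p-values on deviations may therefore be too low, most of all with treatment and suffix means removed, and the Egr3 and Junb values there do not settle a relation.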

How the data were processed

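Bulk RNA from mouse ventral and dorsal striatum was extracted with miRNeasy kits and made into stranded total RNA libraries after ribosomal RNA removal, per the labels' protocols. The authors deposited 1 table of raw gene counts for 22 libraries. CASAVA 1.8.2, STAR 2.3 and featureCounts are named in the submitters' processing notes, which list mm10, GRCm38 and mm9 as builds. Of 23119 Ensembl identifiers, 22205 matched a symbol. Gene positions and exon lengths were taken by identifier from GENCODE on GRCm38.

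Counts were tested with edgeR 4.0.16 in R 4.3.3 (TMM scaling, filterByExpr, robust quasi-likelihood, Benjamini-Hochberg over all genes tested, two-sided, threshold 0.05). Each comparison used only its own groups, and the difference between regions used all 22 libraries. DESeq2 1.42.0 and limma 3.58.1 (voom with quality weights) were alternatives. Standard errors were the log2 change over the square root of F. CPM used TMM-scaled totals, and correlations used log2 CPM with a prior count of 2 and 100000 permutations. A floor of 3 counts was 0.273 to 0.357 CPM in ventral and 0.137 to 0.265 CPM in dorsal libraries. The scripts were tested on simulated data.

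Per-library values were given for 12 set members plus up to 4 with the lowest p in each of 3 comparisons. The members, lists and comparisons were chosen with earlier results of these data known. Libraries sharing a title number mostly correlated little across regions, which does not show that they are separate mice. No fit was blocked in the main results.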

Additional observations from a re-analysis of the deposited data

Results flagged for a closer look

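In 148 sets of libraries (each member in each group), 16 held a library farther from its nearest neighbour than Dixon's 95% limit allows. Chance gives about 1 in 20. Of the 16, 9 were high values in ventral saline library 6: Egr3 at 107.0 CPM (next library 40.3), Klf10 at 76.6 (32.1), Ier5 at 24.2 (9.73), Dusp6 at 88.5 (38.6), Trib1 at 13.6 (6.38), Arc at 114.0 (45.1), Homer1 at 244.0 (159), Bdnf at 18.7 (3.31) and Nptx2 at 20.2 (7.06). This is the library low in medium spiny neuron markers and high in glutamatergic ones. Klf2 was high in ventral saline library 1, at 2.41 CPM (1.17).

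In ventral oxycodone, Fosb was at 9.73 CPM in library 5 (next 7.14) and Atf3 at 3.9 in library 4 (1.67). In dorsal oxycodone library 5, Fosl2 was at 15.2 CPM (9.73) and Atf3 at 3.8 (1.00). In dorsal saline library 2, Fos was at 15.4 CPM (7.55) and Egr1 at 47.8 (32.9). The cause was not tested for any of these values. A further check sought members whose treatments did not overlap in either region and moved in opposite directions. It found 0. With 0 of 37 members free of overlap in dorsal striatum, it could find none, so it says nothing on opposite movement.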

How the results depend on the processing

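For oxycodone, 0 members were called in either region, and for the difference between regions 0, under every scaling, filter, tool and left-out library run. Over all genes, the dorsal count of 30 was 85 with DESeq2, 58 without robust estimation, 15 with limma-voom, 5 with all 22 libraries in 1 fit, and 1 to 63 with 1 library left out (1 without dorsal saline replicate 5, 63 without dorsal oxycodone replicate 3). The ventral count of 0 was 38 with DESeq2 and 61 with limma-voom. Without both sixth libraries it was 0 with edgeR, 60 higher and 35 lower with DESeq2 and 50 higher and 34 lower with limma-voom, and without those and oxycodone replicate 1, edgeR called 67 higher and 20 lower, 0 of them members (these sets, other than edgeR without both sixth libraries, were chosen after seeing the data). Members called between regions numbered 9 to 15 in saline and 14 to 16 in oxycodone mice with 1 library left out. Members called by title suffix numbered 1 to 3, the 1 without dorsal oxycodone replicate 2. Members past the adjusted threshold for correlation with Fos numbered 0 in dorsal libraries. On deviations from treatment and suffix means there was 1, where p may be too low. In ventral libraries without the sixth they numbered 2, with 0 on deviations from the treatment mean, 0 with all 12 libraries and 1 in lane 1. The cause was not tested. No value past the threshold reversed.

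Same-numbered dorsal and ventral libraries were checked for pairing: 1 of 10 pairs correlated above 0.1 (from -0.076 to 0.309). Of 10 dorsal libraries, 1 correlated best with its own number. Low correlations between regions cannot show whether same-numbered libraries come from the same mouse, which is not given in the sources used here. With the title number as a replicate block, 13 members were called between regions in saline mice (13 without the block on the same libraries). In oxycodone mice 15 were called (16), and 0 for the difference (0). The block lost Csrnp1 in oxycodone mice (adjusted p = 0.0634). On these libraries, with or without the block, calls of the main fit were also lost for Jun and Nr4a1 in saline mice and Ier2 in oxycodone mice. Their adjusted p with the block was 0.108, 0.112 and 0.132. At an unadjusted p under 0.05 the block had 42.9% of members in saline and 45.9% in oxycodone mice, against 48.2% and 51.9% of all genes.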
